A study of Homo sapiens with 48 samples.

Results

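The response of 22Rv1 cells to androgen depletion was compared between a luciferase-expressing subline, Rv1-Luc, and the parental line, Rv1-WT, in the absence of inhibitor. The measure was an interaction. For each gene, the log2 change from medium with fetal bovine serum (FBS) to medium with charcoal-stripped serum (CSS) in Rv1-WT was subtracted from the same change in Rv1-Luc. A positive value means that the gene ended higher in Rv1-Luc than the parental response would give, and a negative value that it ended lower. The libraries were chosen by their titles as all vehicle-treated cultures of these lines, which gave 12 of the 48 libraries of the series, in 4 groups of 3.

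The study examined how CDK8 and CDK19, the kinases of the Mediator complex that couples transcription factors to RNA polymerase II, shape castration-resistant prostate cancer. 22Rv1 is an established castration-resistant human prostate cancer line. Rv1-WT is the unmodified line. Rv1-Luc was made from it by lentiviral transduction and carries the firefly luciferase gene FfLuc and the blasticidin resistance gene BlastR. The other libraries of the series held SNX631-treated cultures of the same lines and derivatives in which both kinase genes had been knocked out and a kinase re-expressed. The groups were Rv1-WT in FBS, Rv1-WT in CSS, Rv1-Luc in FBS and Rv1-Luc in CSS, each in medium with 10% of the respective serum and each given 0.1% DMSO, the vehicle, for 72 hours. CSS cultures of both lines had been passaged in CSS for 3 to 4 days and were seeded at 300000 cells per well, against 200000 in FBS. Serum, time in that serum and seeding density therefore cannot be told apart in the response of either line. The design text describes biological triplicates. There was 1 subline, so the p-values measure the spread between cultures, and the transgenes cannot be told apart from any other difference between the lines.

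Charcoal treatment removes androgens and other steroid and lipid-soluble molecules from serum. Sterol synthesis genes are driven by SREBP2, a membrane-bound factor released when cell cholesterol is low. The genes of the amino acid and stress response are driven by ATF4, which is made when the translation factor eIF2α is phosphorylated. Heat shock genes are driven by HSF1, and chaperones of the endoplasmic reticulum (ER) by ATF6 and XBP1. Androgen-responsive genes are those for which androgen depletion of prostate cells is best known.

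Rv1-WT libraries held 14.6 to 18.2 M counts and Rv1-Luc libraries 20.7 to 27.3 M. Every Rv1-Luc library held FfLuc (11044 to 13996 counts) and BlastR (1877 to 2511 counts), and no Rv1-WT library held either. Luminal prostate markers summed to 3390 to 3910 CPM (counts scaled to library size) in every library, while leukocyte markers stayed at or under 2.46 CPM. Immunoglobulin genes gave 367 to 914 counts in Rv1-Luc in FBS and 80 to 112 in Rv1-Luc in CSS, against 0 to 9 in Rv1-WT. The part of the immunoglobulin counts in the results was not tested. With all libraries thinned to the smallest total, 1481 genes were called in the difference, against 1731 at full depth. Of the marker lists for other cell types, ENO2, DERL3 and IGHG3 were called in the difference. Replicate 1 of Rv1-Luc in FBS stood apart from replicates 2 and 3, since the chi-square of its counts divided by the degrees of freedom was 9.15 and 4.88 against them, while other replicate pairs of these groups gave 1.85 to 3.58. Results that it moved most are given with and without it. In these bulk libraries, fewer cells of a kind and less RNA per cell cannot be told apart.

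Of 20009 genes tested, 1731 (8.65%) differed in their depletion response by more than 1.5-fold with a false discovery rate (FDR) below 0.01, by edgeR's quasi-likelihood test with Benjamini-Hochberg adjustment. Such genes are called below. The difference was positive for 923 genes (4.61%) and negative for 808 (4.04%). Scaling to library size alone, without composition factors, gave 1741 genes and turned the share of positive calls from 53.3% to 39.9%. From FBS to CSS, 2174 genes (10.9%) were called in Rv1-WT by itself, of which 1218 (6.09%) rose and 956 (4.78%) fell. In Rv1-Luc by itself 298 genes (1.49%) were called, 136 (0.68%) up and 162 (0.81%) down. The median difference over all genes tested was 0.01. At an unadjusted p of 0.05, 8356 genes passed for the difference, 10073 for depletion in Rv1-WT and 5157 for depletion in Rv1-Luc. The counts of list members given below, called or at that p, are to be read beside these counts and shares.

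Most of the 1731 genes were changed in the parental line and not called in the subline. Among the 1731, 603 were called lower and 587 called higher in CSS in Rv1-WT without a call in Rv1-Luc, together 1190 (68.7%). A call in Rv1-Luc without one in Rv1-WT was made for 73 genes, 34 of them lower and 39 higher. A further 437 (25.2%) were called in neither line by itself. Both lines changed in the same direction for 16 genes and in opposite directions for 15. Genes with a positive difference had a median log2 change of −0.71 in Rv1-WT and 0.10 in Rv1-Luc, and those with a negative difference had 0.81 and −0.07. The call rests on the test of the difference, not on passing in 1 line and missing in the other.

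**Figure D1:**
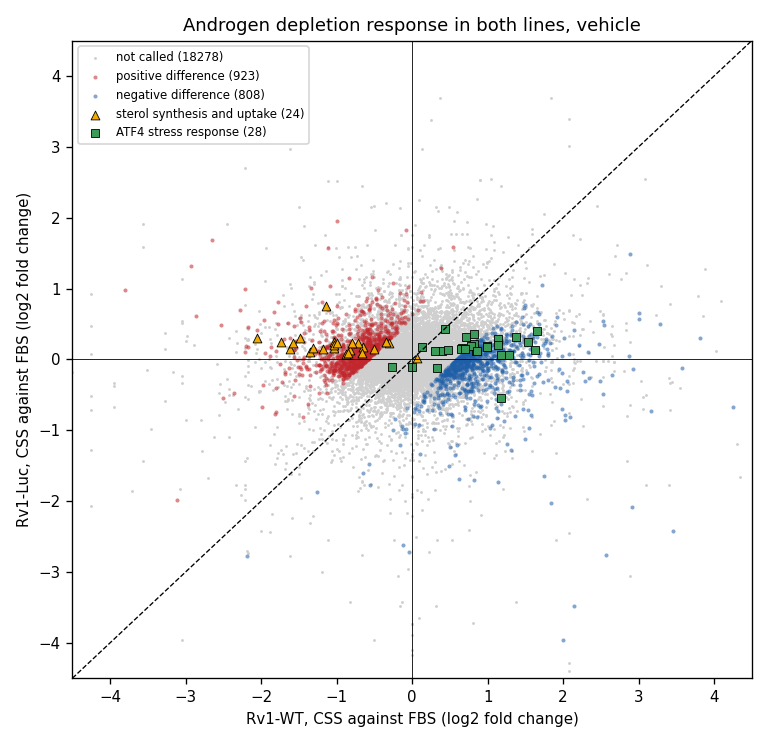
Log2 change from FBS to CSS in Rv1-WT (x axis) against the same change in Rv1-Luc (y axis) for all genes tested, with called genes coloured, sterol genes as triangles, ATF4 stress genes as squares and the line of equality dashed; 9 genes lie outside the axes. The called genes spread along the Rv1-WT axis, with median changes of −0.71 and 0.81, and lie near 0 on the Rv1-Luc axis, with medians of 0.10 and −0.07.

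The sterol synthesis and uptake genes had the highest median difference of the 28 gene lists examined. Of 24 members tested, 22 were called and positive, and the median difference was 1.21, against 0.01 for all genes. In Rv1-WT 20 of the 24 fell, with a median of −1.02. In Rv1-Luc all 24 lay above 0, with a median of 0.19, and edgeR called none of them. There, 17 passed an unadjusted p of 0.05, against 5157 of all 20009 genes tested. DESeq2 called 1 of the 24 and limma-voom none. The proximal promoters of 3 members and of 2 stress genes are printed here, since a promoter element of each group can be read in them.
HMGCS1: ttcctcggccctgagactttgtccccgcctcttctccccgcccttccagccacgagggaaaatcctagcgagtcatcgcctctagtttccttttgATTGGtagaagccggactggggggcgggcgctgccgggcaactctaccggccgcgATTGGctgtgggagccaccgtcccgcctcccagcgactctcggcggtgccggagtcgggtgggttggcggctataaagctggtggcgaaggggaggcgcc
INSIG1: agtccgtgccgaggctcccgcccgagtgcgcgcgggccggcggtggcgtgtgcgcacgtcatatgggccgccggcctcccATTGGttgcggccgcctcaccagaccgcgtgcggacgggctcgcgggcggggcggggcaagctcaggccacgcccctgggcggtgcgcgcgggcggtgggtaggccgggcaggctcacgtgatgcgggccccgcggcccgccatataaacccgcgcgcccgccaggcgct
MVK: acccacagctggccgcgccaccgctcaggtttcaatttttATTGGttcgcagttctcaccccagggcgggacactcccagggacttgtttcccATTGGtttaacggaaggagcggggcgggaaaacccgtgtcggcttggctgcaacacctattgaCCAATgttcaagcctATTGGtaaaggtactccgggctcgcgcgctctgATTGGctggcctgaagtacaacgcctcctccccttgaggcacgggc
HSPA8: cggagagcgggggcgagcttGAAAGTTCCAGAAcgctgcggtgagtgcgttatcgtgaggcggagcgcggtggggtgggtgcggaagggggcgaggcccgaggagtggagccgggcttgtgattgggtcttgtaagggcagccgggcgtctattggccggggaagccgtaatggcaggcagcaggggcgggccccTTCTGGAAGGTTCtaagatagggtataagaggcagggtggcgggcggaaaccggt
ASNS: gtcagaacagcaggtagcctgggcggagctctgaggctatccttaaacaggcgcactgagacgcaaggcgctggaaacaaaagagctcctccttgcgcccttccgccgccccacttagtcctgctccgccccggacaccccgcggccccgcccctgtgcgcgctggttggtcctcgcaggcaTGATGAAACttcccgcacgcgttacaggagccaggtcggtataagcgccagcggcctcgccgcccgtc

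These are the 250 bases before the annotated start in RefSeq, build GRCh38.p14, written 5′ to 3′ along the gene. HMGCS1 lies at chr5:43313413-43313662 (minus strand), INSIG1 at chr7:155297628-155297877 (plus strand) and MVK at chr12:109573544-109573793 (plus strand). HSPA8 lies at chr11:123062137-123062386 and ASNS at chr7:97872409-97872658, both on the minus strand. Capitals mark CCAAT or its complement ATTGG in HMGCS1, INSIG1 and MVK, the heat shock element in HSPA8 and the ATF4-C/EBP element in ASNS. CCAAT is bound by NF-Y, a factor that works beside SREBP2 at sterol promoters. Searched on both strands from 250 bases before the start to 50 after it, CCAAT was present in the promoters of 15 of the 18 sterol genes that the promoter table holds (83.3%), against 36.7% of the 12633 tested genes in the table and 35.7% of all 27305 promoters in it. It was also present in other lists, with 20 of 23 ER folding promoters (87.0%) and 18 of 22 mitosis promoters (81.8%). Among called genes it was present for 39.0% with a positive and 36.2% with a negative difference. A sterol element written as TCACNCCAC, added after the other results were known, was present in 1 of the 18 (5.56%), against 1.08% of tested genes and 1.15% of all promoters. Each motif was counted separately, so matches of different motifs may overlap, and a match is a run of letters, not a measured binding site.

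HMGCS1 encodes an early enzyme of cholesterol synthesis. Its TMM-scaled CPM in the 3 replicates were 793, 853 and 776 in Rv1-WT in FBS and 185, 200 and 199 in Rv1-WT in CSS. In Rv1-Luc they were 579, 1100 and 977 in FBS and 1210, 1020 and 1060 in CSS. The parental groups were far apart and the subline groups overlapped. The log2 change was −2.05 in Rv1-WT and 0.31 in Rv1-Luc, a difference of 2.36 ± 0.194 (SE; FDR 8.27e-12). Without replicate 1 of Rv1-Luc in FBS, the lowest of its group, the difference was 2.13 and remained called.

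INSIG1, which holds SREBP in the ER and is itself an SREBP target, read 550, 557 and 548 CPM in Rv1-WT in FBS and 159, 168 and 169 in CSS. Rv1-Luc read 338, 524 and 487 in FBS and 581, 490 and 528 in CSS. Again only the parental groups were apart, and the difference was 1.98 ± 0.15 (FDR 1.17e-12), or 1.81 without replicate 1 of Rv1-Luc in FBS. MVK, the mevalonate kinase of the pathway, had the lowest p of the list. It went from 147, 141 and 141 CPM to 71.8, 66.2 and 71.7 in Rv1-WT and from 147, 162 and 168 to 183, 175 and 175 in Rv1-Luc. In this gene both pairs of groups were apart, in opposite directions, but the subline's change of 0.16 was too small to be called (difference 1.19 ± 0.0732, FDR 4.79e-20).

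Called members lay at early and late steps of the pathway. SQLE, the squalene epoxidase, differed by 1.28 and FDFT1, the squalene synthase, by 1.33. LSS, which closes the sterol ring, differed by 1.79 ± 0.134 (FDR 8.1e-13). At the end of the pathway, DHCR7 differed by 1.24. SREBF2, the gene of SREBP2 itself, differed by 0.59 ± 0.0698 (FDR 7.67e-10). The members not called were TM7SF2, a sterol reductase, at 0.54 (FDR 1.37e-07) and PMVK at −0.04 (FDR 0.752). EBP and CYP51A1 held fractional counts in 60.4% and 100% of libraries, which marks reads shared with other genes, and are uncertain. Without replicate 1 of Rv1-Luc in FBS, 20 members were called and the median was 1.10, and in Rv1-Luc alone 20 of 24 lay above 0, with a median of 0.08.

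**Figure D2:**
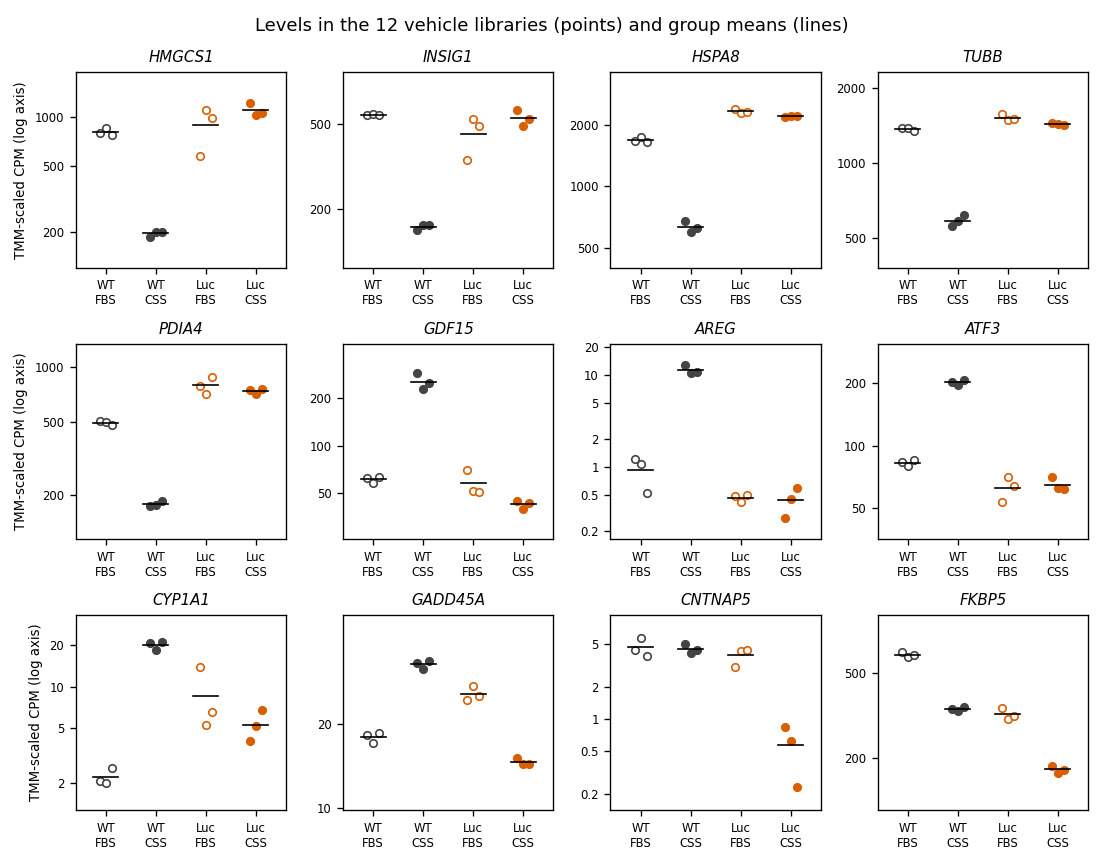
TMM-scaled CPM on a log axis for 12 genes in the 4 vehicle groups, with a point per library and a line at each group mean. HMGCS1, INSIG1, HSPA8, TUBB and PDIA4 are lowest in Rv1-WT in CSS, GDF15, AREG, ATF3 and CYP1A1 are high in that group, GADD45A moves in opposite directions in the lines, CNTNAP5 is low in Rv1-Luc in CSS, and FKBP5 drops in both lines.

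Fatty acid synthesis and desaturation genes were also on the positive side. Of 15 members, 8 were positive and called and 1 negative, with a median of 0.62. In Rv1-WT 7 fell, and in Rv1-Luc edgeR, DESeq2 and limma-voom each called none, with 2 higher and 5 lower at an unadjusted p of 0.05. Without replicate 1 of Rv1-Luc in FBS, 7 members were called in the difference. FADS2, a desaturase of polyunsaturated fatty acids, had 143, 142 and 145 CPM in Rv1-WT in FBS and 70.3, 75.7 and 77.5 in CSS. In Rv1-Luc it had 82.1, 93.2 and 90.2, then 95.5, 86.9 and 92.8, which overlap. Its difference was 1.00 ± 0.0684 (FDR 4.81e-18), with fractional counts in 52.1% of libraries. ACLY, which makes cytosolic acetyl-CoA, differed by 0.94 ± 0.0671 (FDR 2.03e-17), and FASN, the fatty acid synthase, by 0.83 ± 0.102. SCD, the stearoyl-CoA desaturase, differed by 0.84 ± 0.163. GPAM, which starts triglyceride synthesis, was the negative member at −0.69. Among 9 genes of sterol efflux and liver X receptor (LXR) targets, SREBF1 at 0.77 ± 0.0982 and APOE at 0.67 were called, and the median was −0.11. LPCAT3, a phospholipid acyltransferase listed with them, was at 0.56 and not called.

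Genes of the cytosolic heat shock list, which also holds the mitochondrial chaperonin genes HSPD1 and HSPE1, were called in part. Of 27 members 9 were called in the difference, all positive, and 9 fell in Rv1-WT. The median was 0.34 in the difference, −0.42 in Rv1-WT and −0.03 in Rv1-Luc, where edgeR, DESeq2 and limma-voom called none and 3 were higher and 8 lower at an unadjusted p of 0.05. HSPA8, the constitutive HSP70, had 1660, 1740 and 1640 CPM in Rv1-WT in FBS and 682, 602 and 628 in CSS. Rv1-Luc had 2400, 2290 and 2300 in FBS and 2190, 2200 and 2200 in CSS. All 6 Rv1-Luc libraries were above all 6 Rv1-WT libraries, and the difference in response was 1.31 ± 0.0591 (FDR 2.05e-25). HSPA1B, a stress-inducible HSP70, went from 101, 96.4 and 101 to 36.2, 36.6 and 37.8 CPM in Rv1-WT and from 76.9, 71 and 80.1 to 96.2, 87 and 86.9 in Rv1-Luc (difference 1.67 ± 0.0704, FDR 1.18e-26). The change of 0.25 in Rv1-Luc was not called. Its near-identical neighbour HSPA1A differed by 1.95 ± 0.173. Counts were fractional in 62.5% of libraries for HSPA8, 81.2% for HSPA1B and 83.3% for HSPA1A, so their shares of reads are uncertain. HSPB1, a small heat shock protein, differed by 1.12 and the mitochondrial co-chaperonin HSPE1 by 0.94. HSF1 at −0.11, HSP90AA1 at 0.36 and DNAJB1 at 0.51 were not called. The heat shock element, written as GAA, TTC and GAA or as TTC, GAA and TTC, each 2 bases from the next, and marked in HSPA8 above, was in 4 of 24 promoters of the list (16.7%), against 0.293% of tested genes and 0.487% of all promoters. Of 14 genes of the CCT chaperonin and prefoldin, which fold tubulin and actin, CCT3 alone was called, at 0.59, against 8.65% of all genes tested. CCT3 lost the call in 15 of 28 alternatives. PFDN5, a prefoldin subunit with shared reads, stood at 0.51.

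Genes of protein folding in the ER were called in both directions. Of 24 members, 9 were called and positive (CALR, CRELD2, DNAJC3, HSP90B1, HSPA5, MANF, PDIA4, PDIA6 and SDF2L1) and 3 were called and negative (ATF6, ERN1 and SEL1L). The median was 0.33, and the other 12, the chaperones CANX and HYOU1 among them, were not called. PDIA4, a protein disulfide isomerase, had 504, 500 and 483 CPM in Rv1-WT in FBS against 174, 176 and 184 in CSS. Rv1-Luc had 784, 714 and 886 against 752, 712 and 757, with overlapping groups. Its difference was 1.38 ± 0.0695 (FDR 2.22e-23). CALR, the calcium-binding chaperone calreticulin, differed by 1.16 ± 0.062 (FDR 1.31e-22) with fractional counts in 50% of libraries, and HSPA5, the major ER HSP70, by 0.96 ± 0.0711. ERN1, which encodes the ER stress sensor IRE1α, went the other way. It rose from 25, 23.4 and 24 CPM to 89.1, 84.2 and 76.9 in Rv1-WT, and read 12.4, 16.4 and 12.4, then 14.4, 17.5 and 14, in Rv1-Luc (difference −1.64 ± 0.121, FDR 7.84e-17). ATF6, the sensor that drives chaperone genes, differed by −1.03 ± 0.0631, while XBP1 at −0.33 was not called. In Rv1-Luc none of the 24 was called by edgeR, DESeq2 or limma-voom, and 7 were lower at an unadjusted p of 0.05. Of all 20009 genes tested, 5157 passed that limit in Rv1-Luc. DERL3, an ER degradation factor taken from the plasma cell marker list, was positive at 1.16.

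ATF4 stress response genes lay on the negative side. Of 28 members, 15 were called, all negative (ASNS, ATF3, CEBPB, CEBPG, CHAC1, DDIT3, DDIT4, GPT2, MTHFD2, PCK2, SESN2, SLC3A2, SLC7A11, SLC7A5 and STC2), and the median was −0.59. In Rv1-WT 20 rose, with a median of 0.82. In Rv1-Luc the median was 0.16, edgeR, DESeq2 and limma-voom called none, and 21 were higher and 2 lower at an unadjusted p of 0.05. DDIT3, the proapoptotic factor CHOP, had 68.4, 67.8 and 68.8 CPM in Rv1-WT in FBS and 216, 204 and 213 in CSS. Rv1-Luc had 50.1, 60.8 and 60.6 in FBS and 62.1, 62.9 and 62.4 in CSS. The Rv1-WT libraries in CSS were thus the high group, and the difference was −1.50 ± 0.0726 (FDR 3.9e-24), with fractional counts in 58.3% of libraries. ATF3, a stress-induced transcription factor, went from 83, 79.6 and 84.9 to 201, 196 and 206 CPM in Rv1-WT and from 53.3, 70.4 and 63.6 to 70.8, 62.2 and 61.9 in Rv1-Luc (−1.22 ± 0.0791, FDR 4.29e-19). DDIT4, an inhibitor of mTORC1, differed by −1.72 and SESN2, which senses leucine, by −1.29 ± 0.137. CHAC1, which degrades glutathione, differed by −1.24 ± 0.228. ASNS, the asparagine synthetase, differed by −0.60 ± 0.128 (FDR 0.000323) with fractional counts in 58.3% of libraries. ATF4 itself at 0.05, PHGDH at −0.02 and PSAT1 at −0.49, the last 2 being enzymes of serine synthesis, were not called. The level of the list also differed in FBS, where 17 of 28 were lower in Rv1-Luc, and in CSS, where 24 were. Replicate 1 of Rv1-Luc in FBS was low for several of these genes, and without it the count was 18 and the median −0.72.

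Among 20 cytosolic aminoacyl-tRNA synthetases, which charge tRNAs and include ATF4 targets, WARS1 (−1.03 ± 0.066, FDR 2.71e-19), AARS1 (−0.66, shared reads in 58.3% of libraries) and YARS1 were called, with a list median of −0.21. Without replicate 1 of Rv1-Luc in FBS, 5 were called. The ATF4-C/EBP element TGATGNAAN was in 5 of 22 promoters of the ATF4 list (22.7%) and 6 of 16 of the synthetases (37.5%). It was in 1.76% of tested genes and 3.67% of all promoters, and among called genes in 0.904% with a positive and 3.67% with a negative difference. The synthetases with the element were AARS1, CARS1, IARS1, MARS1, NARS1 and TARS1, of which AARS1 alone was called. In the ATF4 list they were ASNS, ATF3, CHAC1, SLC3A2 and SLC7A1, all called but SLC7A1.

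**Figure D3:**
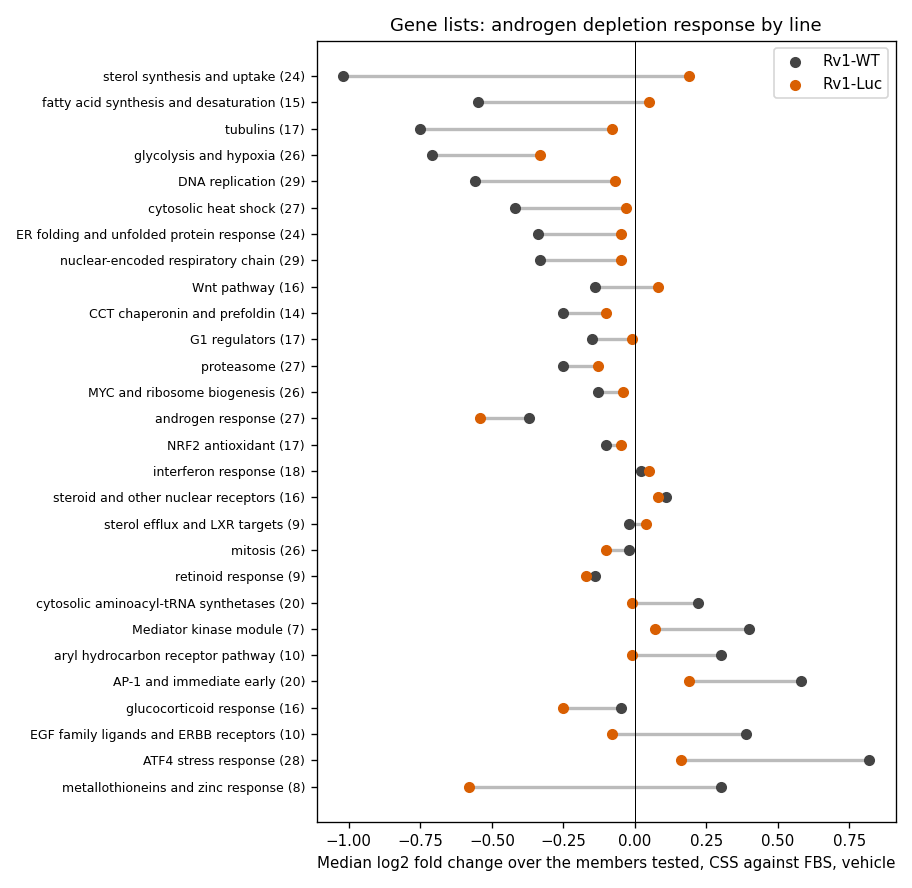
Median log2 change from FBS to CSS of each gene list in Rv1-WT (grey) and in Rv1-Luc (orange). The points are farthest apart for sterol genes (−1.02 against 0.19), while androgen response genes lie below 0 in both lines (−0.37 and −0.54).

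Tubulins and DNA replication genes held many positive calls, and mitosis genes held 1 call, a negative one. Of 17 tubulins, 9 were positive and called and TUBE1 was negative at −0.92, with a list median of 0.60. The median was 0.97 without replicate 2 of Rv1-WT in CSS and 0.73 without replicate 1 of Rv1-Luc in FBS. TUBB, a β-tubulin, had the lowest p of the positive genes that met the naming rule. It had 1380, 1380 and 1340 CPM in Rv1-WT in FBS and 559, 584 and 618 in CSS, against 1570, 1490 and 1510 and then 1450, 1440 and 1420 in Rv1-Luc. The groups parted in both lines, but the change in Rv1-Luc was −0.08 and not called, and the difference was 1.13 ± 0.0528 (FDR 6.54e-25). TUBA1B, an α-tubulin with shared reads in 43.8% of libraries, differed by 1.07 ± 0.0617. Of 29 DNA replication genes, 11 were called, all positive, with a median of 0.47, and 10 fell in Rv1-WT. None was called in Rv1-Luc by edgeR, DESeq2 or limma-voom, where 1 was higher and 12 lower at an unadjusted p of 0.05. Of these 29, 9 were called in the difference without replicate 1 of Rv1-Luc in FBS. TYMS, the thymidylate synthase, went from 248, 253 and 260 to 139, 146 and 151 CPM in Rv1-WT and from 221, 223 and 223 to 247, 227 and 221 in Rv1-Luc (0.86 ± 0.0584, FDR 3.05e-18). LIG1, the replicative DNA ligase, differed by 0.90 ± 0.0611, PCNA, the polymerase clamp, by 0.78 and E2F1, the factor that drives S phase genes, by 0.62. MCM2 at 0.38 was not called.

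Of 26 mitosis genes 1 was called, the spindle kinase AURKA, where 8.65% of all genes tested were called. Its CPM were 65, 67.3 and 63.9 in Rv1-WT in FBS, 76.8, 80.9 and 85.1 in Rv1-WT in CSS, 86.9, 80.3 and 83.2 in Rv1-Luc in FBS and 65.6, 67.7 and 68.9 in Rv1-Luc in CSS. It was higher after depletion in the parental line and lower in the subline without passing the fold limit in either, and the difference was −0.62. CCNB2, the cyclin of mitotic entry, was at −0.55 and not called. Over the list the median was −0.12, or −0.18 with 2 calls without replicate 1 of Rv1-Luc in FBS. At an unadjusted p of 0.05 in edgeR, 5 of the 26 were positive and 12 negative in the difference, where 8356 of all 20009 genes passed. At that p, 10 were higher and 10 lower in Rv1-WT, and 15 were lower and 0 higher in Rv1-Luc. Among 17 regulators of G1, CDK2 (0.62, shared reads in 33.3% of libraries) and CDKN1C were called, against 8.65% of all genes tested. CDKN1B, the inhibitor p27, was at −0.49 (FDR 4.23e-11) under the fold limit. Without that replicate 1 of the 17 was called.

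Genes of glycolysis and hypoxia fell in the parental line and less in the subline. Of 26 members 9 were positive and called (ALDOA, ALDOC, BNIP3, ENO2, GAPDH, LDHA, PFKFB3, PFKFB4 and PKM) and VEGFA, an angiogenic factor, was negative at −0.68. The median change was −0.71 in Rv1-WT, where 18 were called lower, and −0.33 in Rv1-Luc, where 4 were (3 without replicate 1 of Rv1-Luc in FBS). The median difference was 0.51. At an unadjusted p of 0.05 in edgeR, 23 were lower and 1 higher in Rv1-WT, and 24 lower and 1 higher in Rv1-Luc. Of all 20009 genes tested, 10073 passed that limit in Rv1-WT and 5157 in Rv1-Luc. PFKFB4, which sets the rate of glycolysis, had 25.5, 24 and 24.3 CPM in Rv1-WT in FBS and 6.39, 6.26 and 5.96 in CSS. In Rv1-Luc it had 47, 31 and 35.5 in FBS and 22.9, 22.7 and 26.3 in CSS. It was lower in CSS in every library of both lines, and the difference of 1.32 lies between changes of −1.99 and −0.66. ENO2, an enolase also used as a neuroendocrine marker, differed by 0.84 ± 0.0718 (FDR 1.96e-14), and PKM, the pyruvate kinase, by 0.62. PKM lost its call in 5 of 28 alternatives. Of 29 nuclear-encoded respiratory chain genes 6 were called, all positive, among them ATP5MC1 of the ATP synthase at 0.92 and SDHA of complex II at 0.70, the latter with shared reads in 52.1% of libraries. Their median was 0.26.

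Several other housekeeping lists were near the median of all genes. Their counts of called members are to be read against the 8.65% of all genes tested that were called. Of 26 genes of MYC targets and ribosome biogenesis, RRP9 at 0.77 and RRP12 at −0.65, both ribosomal RNA processing factors, were called in opposite directions. edgeR, DESeq2 and limma-voom called none of the 27 proteasome genes, of which 11 were higher and 2 lower at an unadjusted p of 0.05. Of all 20009 genes tested, 8356 passed that limit in the difference. PSMB3, a core subunit, was at 0.48 and PSMA3 at 0.39. Of 17 NRF2 antioxidant genes 4 were positive and 2 negative, including the thioredoxin TXN at 0.91 ± 0.0719 and PGD of the pentose phosphate pathway at 0.62. Of 18 interferon response genes OAS3, a sensor of double-stranded RNA, was positive at 1.17 ± 0.0991 (FDR 1.44e-14) and IFIT2, whose libraries of Rv1-WT in FBS held at most 3 counts, negative, with a list median of 0.01.

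Of 10 EGF family ligands and ERBB receptors, AREG, BTC, HBEGF and ERBB4 were called, all negative, and the median was −0.49. AREG encodes amphiregulin, a ligand of the EGF receptor. Its CPM were 1.23, 1.07 and 0.519 in Rv1-WT in FBS and 13, 10.5 and 10.7 in CSS, against 0.486, 0.419 and 0.499, then 0.281, 0.451 and 0.601, in Rv1-Luc. Only the Rv1-WT libraries in CSS were high, and the difference was −3.70 ± 0.511 (FDR 3.3e-08). BTC, or betacellulin, differed by −1.16 ± 0.18 and HBEGF by −1.16 ± 0.236, while the receptor EGFR at −0.37 was not called. In Rv1-Luc edgeR, DESeq2 and limma-voom called none of the 10, with 2 higher and 1 lower at an unadjusted p of 0.05. Of all 20009 genes tested, 5157 passed that limit in Rv1-Luc. Of 20 AP-1 and immediate early genes 7 were called, all negative, including JUN at −0.69 ± 0.0946, FOS at −1.05 ± 0.27 and EGR1 at −0.73 ± 0.174. The list had a median of −0.35. EGR1 rose in both lines (log2 1.49 and 0.76). The Rv1-Luc call was lost without replicate 1 of Rv1-Luc in FBS.

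CYP1A1 had the most negative difference of the genes that met the naming rule. It encodes a cytochrome P450 induced through the aryl hydrocarbon receptor, AHR. CYP1A1 had 2.06, 2.01 and 2.6 CPM in Rv1-WT in FBS and 20.5, 18.3 and 21 in CSS. Rv1-Luc had 13.9, 5.24 and 6.58 in FBS and 4.01, 5.19 and 6.75 in CSS. In FBS all Rv1-Luc libraries were above Rv1-WT, and in CSS all were below. The difference was −3.89 ± 0.376 (FDR 2.83e-10, 95% interval −4.66 to −3.13), and −3.34 without replicate 1 of Rv1-Luc in FBS, the highest of its group. In the pathway's list of 10, AHR at −0.76 ± 0.104 (shared reads in 47.9% of libraries) and TIPARP, its feedback inhibitor, at −0.60 ± 0.0938 were the other called genes, and CYP1B1 at −0.36 was not called. The list held 2 calls without that replicate. The core of the dioxin response element, TNGCGTG, was in 3 of 9 promoters of the list (33.3%), against 7.11% of tested genes and 5.51% of all promoters. These were the promoters of AHRR, NQO1 and UGT1A6, none of them a called gene, and UGT1A6 was not tested. Among called genes the core was in 6.33% with a positive and 7.17% with a negative difference.

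The list of metallothioneins, which bind zinc and copper, and zinc response genes held 8 tested members, of which MT1G and MT1X fell in Rv1-Luc. In Rv1-WT edgeR, DESeq2 and limma-voom called none and 4 were higher and 1 lower at an unadjusted p of 0.05. Of all 20009 genes tested, 10073 passed that limit in Rv1-WT. MT1E, MT1G, MT1X and the transporter SLC30A10 were called in the difference, all negative, with a median of −0.93. MT1G had 2.35, 2.88 and 3.83 CPM in Rv1-WT in FBS, 3.78, 5.27 and 3.73 in Rv1-WT in CSS, 2.39, 1.51 and 1.14 in Rv1-Luc in FBS and 0.598, 0.722 and 0.462 in Rv1-Luc in CSS. The subline's groups were apart and the parental ones overlapped, and the difference was −1.99 ± 0.34 (FDR 3.22e-06). Without replicate 1 of Rv1-Luc in FBS, the highest of its group, 1 member of the list was called. SLC30A1, a zinc exporter, was at −0.56 and not called.

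The Wnt pathway list held 2 positive calls, LEF1 and TCF7, and 2 negative, DKK1 and LGR4, of 16 members. LEF1, a transcription factor that acts with β-catenin, had 33.7, 36.6 and 33.2 CPM in Rv1-WT in FBS and 29.7, 31.9 and 35.2 in CSS. In Rv1-Luc it had 49.4, 61.8 and 57.9 in FBS and 98.3, 92.9 and 94.5 in CSS. Here the parental groups overlapped and the subline rose by 0.76 (difference 0.85 ± 0.0911, FDR 3.09e-11). CTNNB1, β-catenin itself, was at 0.47 and under the fold limit.

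Of 27 canonical androgen response genes 10 fell in Rv1-WT and 10 fell in Rv1-Luc, with medians of −0.37 and −0.54. The androgen-inactivating enzymes UGT2B15 (0.82) and UGT2B17 (1.43) rose in Rv1-WT. Without replicate 1 of Rv1-Luc in FBS, 8 were called in Rv1-Luc. In the difference 3 were positive, NDRG1 and SPDEF among them, ELL2 was negative, and the median was 0.06. FKBP5, an androgen-induced co-chaperone of steroid receptors, had 626, 593 and 608 CPM in Rv1-WT in FBS and 340, 331 and 347 in CSS, and 345, 305 and 316, then 185, 171 and 176, in Rv1-Luc. The log2 change was −0.84 in Rv1-WT and −0.86 in Rv1-Luc, both called, and the difference of −0.02 had a 95% interval of −0.14 to 0.11.

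KLK3, which encodes prostate-specific antigen, had 10.5, 11.6 and 9.93 CPM in Rv1-WT in FBS and 8.62, 8.3 and 8.6 in CSS. Rv1-Luc had 10.5, 7.13 and 8.85 in FBS and 4.33, 5.1 and 4.62 in CSS. Both pairs of groups were apart. Only the change of −0.92 in Rv1-Luc was called, and the difference of −0.60 missed the FDR limit (0.0114). That difference was −0.45 without replicate 1 of Rv1-Luc in FBS and −0.73 without replicate 2 of that group. It was called in 3 of the fits that left out a single library. The related protease KLK2 was at −0.41 (FDR 0.219), and at −0.04 without replicate 1 of Rv1-Luc in FBS. ELL2, an elongation factor, was lower in CSS in every library of both lines and was called in the subline: 258, 261 and 259, then 235, 250 and 230 CPM in Rv1-WT, and 319, 237 and 267, then 136, 141 and 141 in Rv1-Luc. SPDEF, an epithelial transcription factor, differed by 0.76 ± 0.0675 from changes of −0.36 and 0.41, neither of them called. It lost the call in 2 alternatives. CCND1, the G1 cyclin, was at 0.09 and MYC at 0.44, and neither was called. COLCA1, which fell in each line (−2.18 and −2.77), had a difference of −0.59 (FDR 0.000722) that was lost in 10 of 28 alternatives. PLEKHH2 rose by 3.12 in Rv1-WT, and its difference of −1.79 (FDR 0.0261) was not called. That value was −0.68 without replicate 3 of Rv1-Luc in FBS and −2.25, then called, without replicate 2 of that group.

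Other steroid-linked genes were called more often on the negative side. Of 16 genes of steroid and other nuclear receptors, NR3C1, RARB and THRB were called. NR3C1, the glucocorticoid receptor, had 48.3, 44.4 and 44.9 CPM in Rv1-WT in FBS and 86.2, 89.6 and 85.4 in CSS, against 32.2, 32.6 and 32.5, then 30.4, 31.4 and 32, in Rv1-Luc. It rose in Rv1-WT only, and the difference was −0.97 ± 0.0919 (FDR 5.09e-13). THRB, a thyroid hormone receptor, differed by −0.73 and fell in Rv1-Luc (−0.59). Of 16 glucocorticoid response genes, DUSP1, ERRFI1, KLF9, PDK4 and TSC22D3 were called, all negative, with a list median of −0.45. PDK4, which inhibits pyruvate dehydrogenase, rose in Rv1-WT (1.65) and in Rv1-Luc (0.67, difference −0.98 ± 0.104, FDR 1.83e-11), and ERRFI1, an inhibitor of EGF receptor signalling, differed by −0.97. In the retinoid list of 9, BHLHE40 at 1.89, a circadian repressor, and RARB at −0.99, a retinoic acid receptor, were called. The list's median of −0.15 became 0.13 without replicate 1 of Rv1-Luc in FBS.

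Among the genes that met the naming rule, the largest positive differences were those of CCKBR, HMGCS1, SCD5, PIANP, S1PR5, PRDM16, DPF1 and INSIG1. CCKBR, a gastrin receptor, had 7.58, 8.37 and 6.49 CPM in Rv1-WT in FBS and 1.78, 1.67 and 1.45 in CSS, and between 0.796 and 1.51 in the 6 Rv1-Luc libraries, whose groups overlapped (difference 2.39 ± 0.342, FDR 7.32e-08). SCD5, a stearoyl-CoA desaturase, differed by 2.16 ± 0.366 and S1PR5, a sphingosine-1-phosphate receptor, by 2.07 ± 0.334. PRDM16, a zinc-finger regulator, differed by 2.00 ± 0.449 and DPF1, a chromatin remodelling subunit, by 1.99 ± 0.488, and the latter rose by 1.15 in Rv1-Luc. By p, TUBB and PDIA4 were followed by SFN, a 14-3-3 protein of epithelia (1.30 ± 0.067), FKBP4 (1.04 ± 0.054) and TFRC (1.16 ± 0.0623). FKBP4, a co-chaperone of steroid receptors, had 609, 605 and 610 CPM in Rv1-WT in FBS and 270, 266 and 290 in CSS, against 770, 676 and 731, then 689, 680 and 666, in Rv1-Luc. TFRC, the transferrin receptor, had 741, 739 and 710, then 302, 311 and 315 in Rv1-WT, and 505, 543 and 538, then 539, 467 and 500 in Rv1-Luc. Both genes dropped in Rv1-WT and had overlapping groups in Rv1-Luc.

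In the same set of genes, the largest negative differences were those of CYP1A1, AREG, LAMP3, APOL6, CNTNAP5, STK32A, GDF15 and LRRC2. AREG and LAMP3 were under 1 CPM in every Rv1-Luc library, so their changes in that line are imprecise. GDF15, a secreted stress cytokine, had 62.6, 58 and 62.9 CPM in Rv1-WT in FBS and 287, 227 and 248 in CSS. Rv1-Luc had 70.5, 51.8 and 51.1 in FBS and 44.6, 39.5 and 43.3 in CSS. Rv1-WT in CSS was the high group, and the difference was −2.50 ± 0.189 (FDR 1.1e-12), or −2.33 without replicate 1 of Rv1-Luc in FBS. LAMP3, a lysosomal membrane protein, went from 5.82, 4.82 and 5.06 to 50.3, 35.5 and 34.2 CPM in Rv1-WT and was at most 0.496 in Rv1-Luc (−3.06 ± 0.518). APOL6, an apolipoprotein L gene, differed by −2.88 ± 0.495, the kinase gene STK32A by −2.61 ± 0.431 and LRRC2 by −2.45 ± 0.655. CNTNAP5, a contactin-associated protein of neurons, was set apart by its lines. Its CPM of 4.47, 5.76 and 3.89 in Rv1-WT in FBS and 5, 4.15 and 4.46 in CSS overlapped, while Rv1-Luc had 3.08, 4.32 and 4.45 in FBS and 0.844, 0.631 and 0.231 in CSS. The change of −2.72 in Rv1-Luc was called (FDR 2.61e-11), and the difference was −2.67 ± 0.353.

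By p, the negative genes were led by GADD45A, GTPBP2, TES, DUSP4 and INTS6. GADD45A, a growth arrest gene, rose from 18.3, 17.1 and 18.6 to 32.9, 31.3 and 33.5 CPM in Rv1-WT and fell from 24.4, 27.4 and 25.1 to 15.1, 14.4 and 14.4 in Rv1-Luc (−1.66 ± 0.0848, FDR 3.34e-23). DUSP4, a phosphatase that inactivates ERK, rose from 23.8, 21.8 and 24.2 to 53.7, 46.7 and 51.3 in Rv1-WT and fell from 20.6, 18.7 and 19.3 to 10.8, 10.9 and 11.4 in Rv1-Luc (−1.95 ± 0.107, FDR 4.11e-22). These genes changed in opposite directions, each with all libraries of a line apart. GTPBP2, a ribosome rescue factor, differed by −1.47 ± 0.0766, TES, a focal adhesion protein, by −1.10 ± 0.0583 and INTS6, an Integrator subunit, by −1.26 ± 0.0726, and each was called in Rv1-WT and not in Rv1-Luc. The Rv1-Luc libraries in CSS were also all above those in FBS for GTPBP2.

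Opposite calls in the lines were made for 15 genes, 11 of them lower in Rv1-WT and higher in Rv1-Luc and 4 the reverse. The examples that follow were chosen after their values were seen. FGFR4, an FGF receptor, had log2 changes of −0.68 in Rv1-WT and 0.62 in Rv1-Luc, KCNC1, a potassium channel, had −0.72 and 0.76, and TIMP2, an inhibitor of metalloproteinases, had −0.60 and 0.86. TIMP2 had 5.35, 4.95 and 3.37 CPM in Rv1-WT in FBS, 2.22, 3.72 and 3.16 in Rv1-WT in CSS, 4.61, 6.04 and 5.59 in Rv1-Luc in FBS and 9.01, 9.83 and 10.7 in Rv1-Luc in CSS. In reverse, NR5A2, an orphan nuclear receptor, had 6.23, 9.17 and 9.34, then 12.7, 13.4 and 11.9 CPM in Rv1-WT, and 4.77, 2.81 and 3, then 0.95, 1.17 and 1.2 in Rv1-Luc (difference −2.32). KRT7, a simple epithelial keratin, changed by 0.73 and −0.84. Among the genes called in Rv1-Luc and not in Rv1-WT, also chosen after their values were seen, were the matrix protein FN1 (0.11 in Rv1-WT and −1.34 in Rv1-Luc) and the epithelial factors EHF (0.04 and −0.91) and SOX4 (−0.22 and −0.85). FN1 had between 37.8 and 53.6 CPM in all Rv1-WT libraries, and 9.71, 9.22 and 9.67, then 3.59, 3.61 and 4.16, in Rv1-Luc.

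The lines themselves were compared within each medium, to see where the genes differed before and after depletion. Rv1-Luc differed from Rv1-WT in 3558 genes (17.8%) in FBS, 1726 higher (8.63%) and 1832 lower (9.16%), and in 6213 (31.1%) in CSS, 3016 higher (15.1%) and 3197 lower (16%). Of the 1731 genes, 1017 (58.8%) were called between the lines in CSS and not in FBS, 136 (7.86%) in FBS and not in CSS, 312 (18%) in both media in the same direction and 14 in opposite directions. The other 252 (14.6%) were called in neither medium. CYP1A1 was higher in Rv1-Luc in FBS (log2 1.96) and lower in CSS. The sterol list held 2 genes lower in Rv1-Luc in FBS, and 19 higher and 1 lower in CSS.

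The same interaction was then measured in the 12 SNX631 libraries of these lines, which share no library with the vehicle ones. SNX631 inhibits CDK8 and CDK19 and was used at 500 nM for the same time. In those libraries 1169 genes (5.84%) were called, 532 (2.66%) positive and 637 (3.18%) negative. Called under both treatments in the same direction were 728 genes, which are 42.1% of the vehicle calls and 62.3% of the SNX631 calls, and 2 were called in opposite directions. Of the 1731 vehicle calls 1681 (97.1%) had the same sign under SNX631, with Pearson's r of 0.85 and Spearman's rho of 0.84 across these genes, which are not independent replicates and were selected on the vehicle values. The share and correlation over all genes tested were not computed, so these values have no background to be read against. The difference was smaller in size under SNX631 for 1441 of them (83.2%), with the median going from 0.80 to 0.55 for positive genes and from −0.86 to −0.65 for negative ones. Genes selected for large vehicle values are likely to be smaller in any other libraries. These counts therefore do not test an effect of SNX631 on size.

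**Figure D4:**
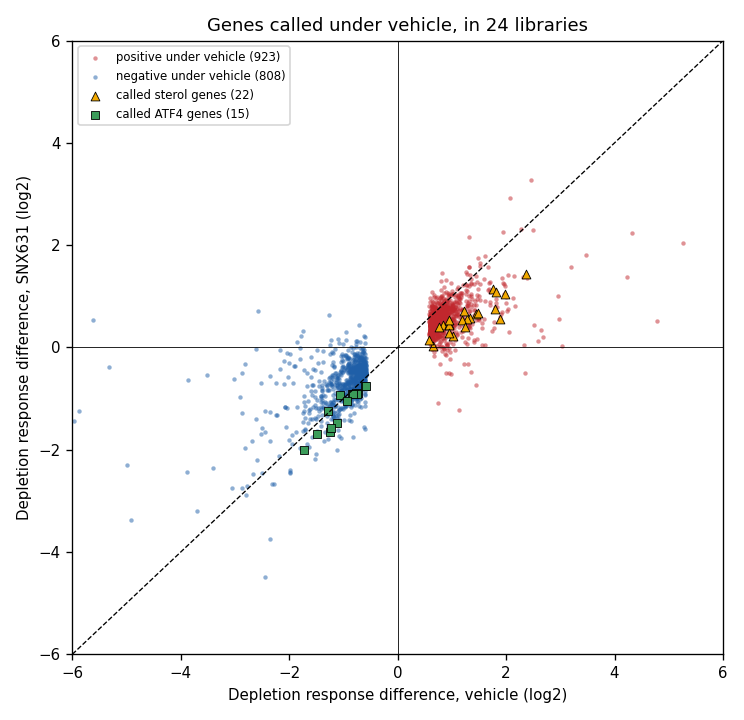
Difference in depletion response (log2, Rv1-Luc minus Rv1-WT) under vehicle (x axis) against that under SNX631 (y axis) for the 1731 genes called under vehicle. Nearly all points (1681) have the same sign under both treatments, and 1441 are smaller in size under SNX631. The genes were selected on their vehicle values, which by itself makes smaller values likely in other libraries.

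Tested directly, the vehicle and SNX631 differences were unequal for 51 genes (0.255% of those tested), 48 (0.24%) more positive under vehicle and 3 (0.015%) more negative. Of the 51, 39 were among the 1731. The 51 included 7 of the 24 sterol genes (DHCR7, EBP, FDFT1, FDPS, LSS, MVK and TM7SF2, the last not called under vehicle). They also included 4 ER folding genes (CALR, HSP90B1, MANF and PDIA4) and the fatty acid genes ACSS2 and FADS2. The sterol median was 1.21 under vehicle and 0.54 under SNX631, where 8 members were called, and MVK went from 1.19 to 0.54. PDIA4 went from 1.38 to 0.47 and TFRC, also called in this test, from 1.16 to 0.58. MYC, at 0.44 under vehicle, was at −0.32 under SNX631, and the change between them of 0.76 was called. The heat shock list had 9 calls and a median of 0.34 under either treatment, and the ATF4 list 15 and 18 calls, with medians of −0.59 and −0.76. CNTNAP5 was at −2.67 and −2.48, GDF15 at −2.50 and −2.45 and HSPA8 at 1.31 and 1.57. NDRG1, a differentiation and hypoxia gene, was at 0.75 under vehicle and −1.09 under SNX631 and passed the direct test. MT1G was at −1.99 and −0.13 and did not pass it (FDR 0.0358).

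In the Mediator kinase module itself, CDK8, CDK19 and MED12 were not called. MED12L, a paralogue of the subunit that activates the kinase, was the called member of 7, at 0.68 (FDR 0.00719). It was not called by DESeq2 or without replicate 1 of Rv1-Luc in FBS. At an unadjusted p of 0.05, 1 of the 7 was positive and 5 were negative. CDK19 had 149, 148 and 150 CPM in Rv1-WT in FBS and 201, 205 and 200 in CSS, against 112, 117 and 120, then 120, 119 and 120, in Rv1-Luc. Its difference of −0.40 (95% interval −0.52 to −0.28, FDR 3.76e-07) was under the fold limit. CDK8 had 26.6, 27.3 and 26.4, then 26.6, 27.2 and 25.4 CPM in Rv1-WT and 29.7, 28.3 and 27.5, then 23.8, 21.3 and 25.2 in Rv1-Luc, with a difference of −0.26 (interval −0.43 to −0.10, FDR 0.0088). MED12 was at −0.55, and it was called under some alternatives, such as the GC offset (−0.64) or without replicate 1 of Rv1-WT in FBS (−0.61).

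The called genes also differed in base composition. The median GC content of the longest GENCODE transcript was 55.8% for positive genes, 44.1% for negative genes and 48.6% for genes not called, and the median length was 2964, 3986 and 2966 bases. When the genes were divided by GC content into 5 bins of equal size, from the lowest bin to the highest, positive calls went from 70 to 366 and negative calls from 236 to 66. The median difference went from −0.12 to 0.20 across the same bins. With a GC offset fitted to each library, 1470 genes were called, of which 1234 were shared with the 1731, and the sterol, heat shock, ER folding and ATF4 medians were 1.07, 0.37, 0.25 and −0.62. Among the named genes, CCT3, CDK2, COLCA1, PGD, PKM, RRP9, SPDEF and SREBF1 were no longer called there. Whether GC content comes from the libraries or from the genes that respond was not tested.

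**Figure D5:**
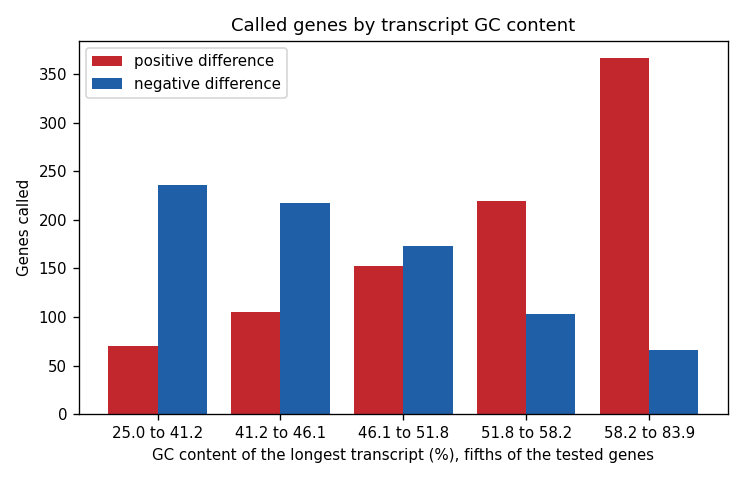
Number of genes with a called positive and a called negative difference in each of 5 equal bins of tested genes by transcript GC content, from lowest to highest. Positive calls rise from 70 to 366 and negative calls fall from 236 to 66.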

How the data were processed

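Total RNA of 48 cultures was sequenced as strand-specific libraries, and the 12 vehicle libraries of Rv1-WT and Rv1-Luc carry the comparison. The deposited table gives expected counts per gene, made by the authors from the reads. By their fractions, shared reads were divided between genes, and 81.6% of nonzero values were whole. The submitters' processing notes name FastQC, cutadapt 2.8, STAR 2.7.2b, featureCounts of Subread 2.0.3 and the builds GRCh38.p13 and GRCm39, without their order or role.

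Computed here were all comparisons. Groups came from the sample titles. Counts were rounded, the transgenes were left out of tests and totals, and filterByExpr of edgeR (minimum count 10, minimum total 15) left 20009 of 61817 entries. All 48 libraries entered a fit with 16 group means and 32 residual degrees of freedom (edgeR 4.0.16, limma 3.58.1, R 4.3.3, TMM, robust quasi-likelihood F-test, two-sided, Benjamini-Hochberg over genes within each of the comparisons). A gene was called at an FDR under 0.01 and a fold over 1.5. Levels are TMM-scaled CPM, and fold values are from the fit, with their SE. The biological coefficient of variation was 4.20%. Totals of 14.6 to 27.3 M counts limit the precision for genes near 1 CPM. A group at 3 counts or fewer in every library was taken as at the floor, which held for 21 called genes, and no fold is given for these. Floors cover counting error only.

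Named by rule were the 8 most positive and 8 most negative called genes and the 5 lowest p-values in each direction, among called genes with a symbol, at least 1 CPM on average over the 12 libraries, over 3 counts in each and fractional counts in at most 25% of libraries (1188 genes). To these were added the 2 lowest p-values of each of the 28 gene lists with any called member needed to describe a count, and a set of genes given whatever their values. That made 86 genes, of which 66 were called, and a few of them are not reported here. The members, lists and rule were chosen with earlier results of these data known. The script was tested on simulated counts. Alternatives were other scalings, filters, tools, library subsets and thresholds, depth thinning, a replicate block and, chosen after seeing the data, a GC offset, removal of genes with fractional counts and the direct test of vehicle against SNX631. DESeq2 1.42.0 was run on the 12 libraries. RefSeq promoters (GRCh38.p14) were matched by symbol.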

Additional observations from a re-analysis of the deposited data

Results flagged for a closer look

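The depletion response differed between Rv1-Luc and Rv1-WT under vehicle for 1731 genes, by edgeR's test of the difference itself, and these include 66 genes named by rule. Among the positive log2 differences were CCKBR 2.39, HMGCS1 2.36, SCD5 2.16, PIANP 2.12, S1PR5 2.07, PRDM16 2.00, DPF1 1.99, INSIG1 1.98 and BHLHE40 1.89. Next in size came HSPA1B 1.67, PDIA4 1.38, HSPA8 1.31, SFN 1.30, MVK 1.19, OAS3 1.17, CALR 1.16, TFRC 1.16 and TUBB 1.13. Lower positive log2 differences were TUBA1B 1.07, FKBP4 1.04, FADS2 1.00, ACLY 0.94, ATP5MC1 0.92, TXN 0.91, LIG1 0.90, TYMS 0.86 and LEF1 0.85. The smallest of the positive ones were ENO2 0.84, RRP9 0.77, SREBF1 0.77, SPDEF 0.76, SDHA 0.70, CDK2 0.62, PGD 0.62, PKM 0.62 and CCT3 0.59.

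Among the negative log2 differences were CYP1A1 −3.89, AREG −3.70, LAMP3 −3.06, APOL6 −2.88, CNTNAP5 −2.67, STK32A −2.61, GDF15 −2.50 and LRRC2 −2.45. These were followed by MT1G −1.99, DUSP4 −1.95, GADD45A −1.66, DDIT3 −1.50, GTPBP2 −1.47, INTS6 −1.26, ATF3 −1.22 and BTC −1.16. Nearer to 0 were TES −1.10, WARS1 −1.03, RARB −0.99, PDK4 −0.98, ERRFI1 −0.97, NR3C1 −0.97, AHR −0.76 and THRB −0.73. The smallest negative ones were JUN −0.69, AARS1 −0.66, RRP12 −0.65, AURKA −0.62 and COLCA1 −0.59. All of these passed the FDR and fold limits of the test of the difference in 3 against 3 libraries per line.

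FfLuc and BlastR entered no test. In the 6 Rv1-Luc vehicle libraries FfLuc had a median of 529 CPM and BlastR a median of 91.2 CPM, while the 6 Rv1-WT libraries gave no count, which allows up to 0.205 CPM.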

How the results depend on the processing

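The count of 1731 genes stayed between 1270 and 1854 under the other scalings, filters, tools, subsets, thinning and corrections, and moved by over 1.5 times only with the threshold. Tested against a fold of 1.5 (glmTreat), the counts were 317 for the difference, 630 for depletion in Rv1-WT, 49 for depletion in Rv1-Luc, 1705 and 3639 between the lines in FBS and CSS, 189 for the SNX631 difference and 0 for vehicle against SNX631. At an FDR under 0.05 with no fold limit they were 6830, 8981, 2800, 10498, 13405, 5554 and 236 in the same order. The count of 51 for vehicle against SNX631 was 98 with no filter and 23 in the 24 libraries of these lines.

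Leaving out each vehicle library in turn gave 1514 to 1854 genes for the difference (lowest without replicate 1 of Rv1-WT in CSS, highest without replicate 1 of Rv1-Luc in FBS), 1943 to 2186 for Rv1-WT, 239 to 341 for Rv1-Luc, 3159 to 3576 and 5792 to 6222 between the lines in FBS and CSS, 1156 to 1185 for the SNX631 difference and 40 to 73 for vehicle against SNX631. The difference of FKBP5 ran from −0.05 to 0.04 over these libraries and changed sign without replicate 2 of Rv1-WT in FBS (0.00), replicate 1 of Rv1-Luc in FBS (0.04) or replicate 2 of Rv1-Luc in CSS (0.01) and with the GC offset (0.08); the cause was not tested. Of the 66 named genes called, 55 had a value under all 28 alternatives and 36 of these kept the call in each. The other 11 were removed with the genes of fractional counts, and 6 of them kept the call under the other 27. CCT3 lost it under 15 and COLCA1 under 10.

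Pairing by replicate number was examined in same-numbered libraries only, which cannot exclude it. Over all pairs of vehicle groups the correlations ran from −0.20 to 0.17. Same-numbered FBS and CSS libraries had correlations of their deviations of 0.01, 0.11 and 0.13 in Rv1-WT and −0.18, −0.20 and −0.03 in Rv1-Luc. With the replicate block in the fit of all libraries 1734 genes were called, and with a block within each line in the 12 libraries 1559. HMGCS1 (2.38) and CYP1A1 (−3.88) were not called under the latter block.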
